A study of Rattus norvegicus with 24 samples.

Results

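The genes described here encode the pores and subunits of ion channels that set the electrical behaviour of a cell. They were chosen by name, as the genes whose only platform symbol begins with Kcn (potassium channels), Scn (sodium channels, including the epithelial Scnn1 subunits), Cacn (voltage-gated calcium channel subunits) or Clcn (chloride channels and exchangers). The rule found 86 genes on 134 probe sets, among 4736 genes that the array names, and no measured value entered it. Where a gene had several probe sets, as 34 of the 86 did, the one with the highest mean over all arrays stands for it, and the others are described beside it where they bear on the result.

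A skeletal muscle fibre fires when voltage-gated sodium channels open, and repolarises through potassium channels, while chloride channels and inward rectifier potassium channels hold its resting potential steady. In the transverse tubules the same action potential moves a voltage-gated calcium channel that is coupled to calcium release from the sarcoplasmic reticulum, which links excitation to contraction. Nerve fibres, Schwann cells, vessel walls and epithelia in the tissue carry channel genes of their own. In RNA from whole muscle, fewer cells of a type and less RNA per cell cannot be told apart.

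The samples were rat extraocular muscles (EOM, which turn the eyeball) and extensor digitorum longus (EDL, a fast muscle of the lower hind limb) at 6, 18 and 30 months of age. Each of the 6 groups held 4 arrays, 24 in all, and the design text states that tissue of 4 animals was pooled into each RNA sample. The labels give no treatment, and strain, sex and whether EOM and EDL came from the same animals are not given in the sources used here. The labelled replicates are pools, which means that a p-value reflects variation among pools, not among animals.

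Signals are intensities on the scanner software's linear scale, called units here. The array medians lay between 89.7 and 136.8 units, and 4 arrays a group set how precise each mean is. Of the marker genes, 3 of 3 for extraocular muscle (the myosins Myh13, Myh8 and Myh3) were higher in EOM, their summed level running from 36556 to 59144 units against 877.7 to 3731 in EDL. Myh8 was not above background in any EDL group and entered the test through EOM alone. The 7 of 7 measured skeletal muscle genes, Acta1 and Ckm among them, were above background in both muscles and lower in EOM (median log2 difference -0.55). Of 4 heart markers Nppa and Tnni3 were below background in both muscles, while Myh6 (group means 4923 to 14675 units) and Myl7 (226.5 to 387.1) were above it on all arrays. Neither was called over the mean of ages, but Myh6 was called lower in EOM at 6 months. The Myh6 probe set has the suffix _f_at, and whether its signal is specific to Myh6 was not tested. Of 2 retina markers Pdc was below background and Opn1sw lay near it (56.0 to 94.5). One array of EDL at 30 months (replicate 1) stood apart from its group, with a median rank correlation of 0.869 to the other 3, where other arrays had 0.910 to 0.958. The EDL arrays at 6 months numbered 1 and 2 had 3′ to 5′ beta-actin signal ratios, a measure of RNA integrity, of 2.54 and 3.54, against 1.13 to 2.12 elsewhere. For some calls the result without those 2 arrays is given beside, and other results that include them are given only with them.

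A gene was taken as above array background in a group when its signal exceeded the array's own 40th percentile, 53.8 to 83.8 units, in 3 or more arrays of that group. By that measure 43 of the 86 genes were above background in at least 1 group and were tested. These were 25 of 54 Kcn genes, 5 of 13 Scn genes, 10 of 14 Cacn genes and 3 of 5 Clcn genes. Above background in all 6 groups were 29 genes (16 Kcn, 3 Scn, 7 Cacn and 3 Clcn). By group, 40, 36 and 32 of the 86 were above background in EDL at 6, 18 and 30 months, and 37, 35 and 36 in EOM.

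The 43 genes below background in every group included many that are best known from neurons: the sodium channel pores Scn1a, Scn2a, Scn9a, Scn10a and Scn11a, the axonal potassium channel Kcna2, and the G protein-gated rectifiers Kcnj3, Kcnj6 and Kcnj9. The cardiac pair Kcnq1 and Kcne1 and the epithelial sodium channel subunits Scnn1a and Scnn1b were below background too. So were some that skeletal muscle is known to use, namely Kcnj2, the inward rectifier of the resting fibre, Kcna4 and Kcnc1. Their group means reached at most 100.2 units (Scn1a), and no other probe set of these genes passed. This says only that these probe sets gave no signal above background. The remaining genes in that class were Cacna1d, Cacna1h, Cacnb2, Cacnb4, Clcn5, Clcn7, Kcna3, Kcna5, Kcna6, Kcnab3, Kcnb2, Kcnc2, Kcnd3, Kcnf1, Kcnh5, Kcnh6, Kcnj4, Kcnj5, Kcnj13, Kcnj14, Kcnj16, Kcnk3, Kcnk5, Kcns1, Kcnt1, Kcnv1 and Scn2b.

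**Figure D1:**
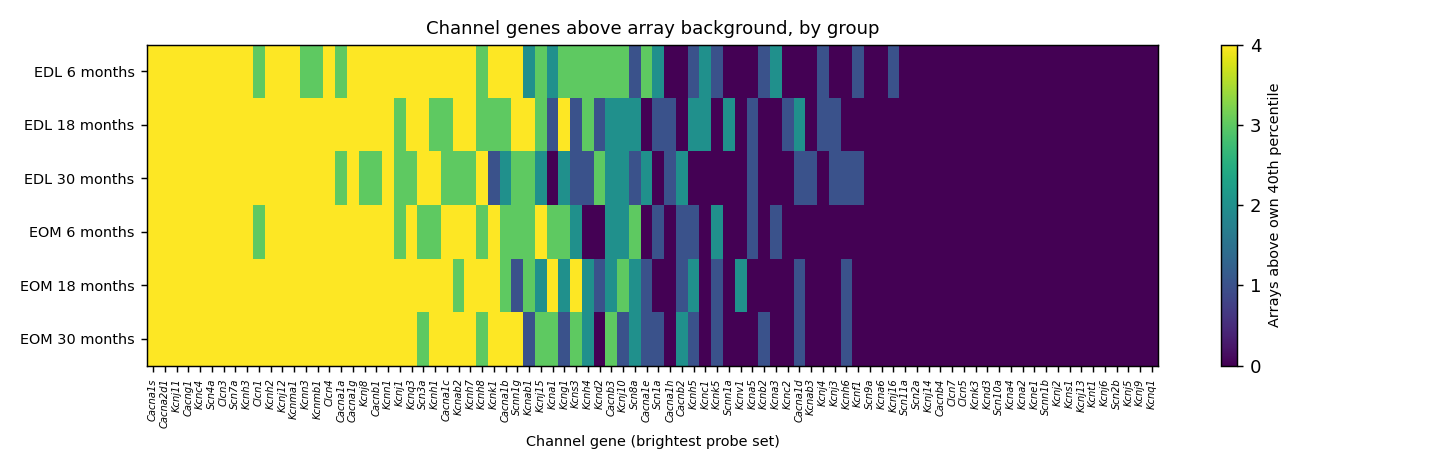
Number of arrays (0 to 4, colour) on which each of the 86 channel genes exceeded its array's 40th percentile, by muscle and age; genes on the horizontal axis are ordered by the number of groups above background. The 29 genes on the left are above background in all 6 groups and the 43 on the right in none.

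In the comparison of EOM with EDL averaged over the 3 ages, 16 of the 43 tested channel genes differed at a Benjamini-Hochberg adjusted p under 0.05 (limma, adjusted over 5741 probe sets), which is what is meant by called below. Higher in EOM were Scn7a, Kcnma1, Kcna1 (not above background in any EDL group), Kcnk1, Kcnj8 and Kcns3. Lower in EOM were Cacng1, Kcnj12, Clcn1, Cacna1s, Kcnc4, Kcnh1, Scn3a, Clcn4, Scnn1g and Kcnj11. The called share was 37.2% of the tested channel genes, where 42.3% of all tested probe sets were called, so the count itself is not a result about channels. Their median log2 difference was -0.10, against -0.04 over all tested genes. Of 20 genes of the fibre membrane and triad (the junction of transverse tubule and sarcoplasmic reticulum), 14 were on the array and 11 were tested, of which 6 were lower, 1 was higher (Kcnma1) and 4 were not called (Scn4a, Cacnb1, Cacna2d1 and Kcnn3), with a median of -0.43. The 7 skeletal muscle genes used as markers had a median of -0.55 in the same comparison, and their part in the lower channel levels was not tested.

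**Figure D2:**
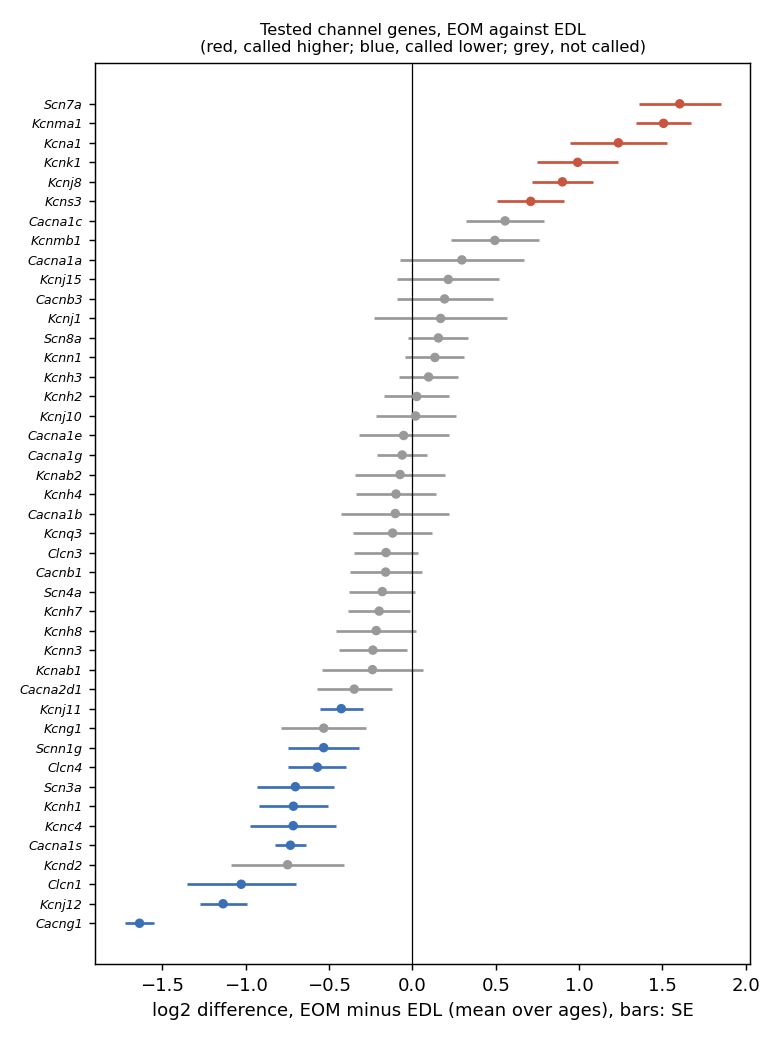
Log2 difference of EOM against EDL, mean over ages, for the 43 tested channel genes (points) with its standard error (bars). The 6 called genes above 0 run from Kcns3 at 0.71 to Scn7a at 1.60, and the 10 called genes below 0 from Kcnj11 at -0.43 to Cacng1 at -1.64.

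The calcium channel of the transverse tubule was called lower in EOM for 2 of its 4 measured subunits. Its pore is Cacna1s (Cav1.1; Entrez 682930, chromosome 13, 50045668 to 50115903 on GRCr8 in the RefSeq table), the voltage sensor of excitation-contraction coupling. In EDL, Cacna1s read 5565.5, 5187.7, 3135.3 and 4089.7 units at 6 months, 5011.8, 5021.4, 4706.3 and 4022.3 units at 18 months, and 3463.1, 3991.6, 3600.0 and 3317.5 units at 30 months. In EOM it read 2520.3, 2784.8, 2167.7 and 2124.2 units at 6 months, 3015.1, 2581.8, 2387.6 and 2478.0 units at 18 months, and 3080.2, 2785.7, 2247.0 and 2320.4 units at 30 months. All 12 EOM arrays lay below all 12 EDL arrays, and the difference was 1.66-fold (log2 -0.73, SE 0.09, adjusted p = 7.83e-07). A second Cacna1s probe set was also lower in EOM (log2 -0.88, SE 0.31, adjusted p = 0.0234), but at 6 months it overlapped and was not called (log2 -0.17, adjusted p = 0.88). On that probe set EDL replicates 1 and 2 at 6 months, the arrays of high actin ratio, read 324.4 and 395.8 units, against 2473.0 and 3493.5 in the other 2.

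Cacng1, the gamma subunit found with Cav1.1 in skeletal muscle (Entrez 29658, chromosome 10, 93152558 to 93165246), was the tested channel gene furthest below its EDL level. It read 2807.4, 2959.7, 3411.8 and 3986.9 units at 6 months, 3126.1, 3905.1, 3800.9 and 3718.2 units at 18 months, and 3399.6, 2802.6, 3554.0 and 3538.3 units at 30 months in EDL. The EOM arrays gave 998.2, 1084.2, 973.4 and 1003.3 units at 6 months, 998.1, 1057.1, 1309.4 and 1240.1 units at 18 months, and 1028.7, 1407.3, 938.9 and 1165.8 units at 30 months. The lowest EDL array was above the highest EOM array, a 3.11-fold difference (log2 -1.64, SE 0.09, adjusted p = 1.41e-13). It was called at each age and kept its call under all 35 alternatives of processing and array choice. Without overlap between all 12 arrays of each muscle were 3 of the 43 genes, Cacng1, Cacna1s and Kcnma1, and over all tested probe sets 6.92% had none.

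The other subunits did not pass the test. Cacna2d1, the alpha2-delta subunit, read 7809.5, 3926.6, 3111.7 and 2242.3 units at 6 months, 4200.0, 3886.1, 5480.8 and 2562.0 units at 18 months, and 5823.8, 4010.1, 5702.9 and 2145.8 units at 30 months in EDL. It read 3058.0, 3284.7, 4207.5 and 1722.1 units at 6 months, 4339.0, 3115.9, 3862.0 and 1850.1 units at 18 months, and 4808.5, 2930.2, 4387.2 and 1778.1 units at 30 months in EOM. The muscles overlapped widely (log2 -0.35, SE 0.22, adjusted p = 0.222). Cacnb1, the intracellular beta subunit, read 244.7, 241.7, 261.6 and 205.9 units at 6 months, 262.7, 186.8, 297.5 and 233.1 units at 18 months, and 69.3, 258.0, 304.9 and 219.6 units at 30 months in EDL and 178.4, 152.9, 231.4 and 217.9 units at 6 months, 160.6, 283.3, 284.9 and 283.7 units at 18 months, and 190.2, 74.5, 202.5 and 236.2 units at 30 months in EOM, again with overlap (log2 -0.16, SE 0.22, adjusted p = 0.58).

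Promoter sequences were read from RefSeq (GRCr8) for 65 of the 86 genes, 74 windows in all, and for 12 of the 17 genes called in any comparison. They are shown for 2 called genes, the fibre gene Cacna1s and the vessel-wall gene Kcnj8 described further on, as examples of a window with and one without the motif searched. Each is the 250 bases before the start of transcription, with CAGCTG, a form of the E-box letters CANNTG that myogenic factors can bind, in capitals.
Cacna1s, chr13:50045418-50045667, plus strand: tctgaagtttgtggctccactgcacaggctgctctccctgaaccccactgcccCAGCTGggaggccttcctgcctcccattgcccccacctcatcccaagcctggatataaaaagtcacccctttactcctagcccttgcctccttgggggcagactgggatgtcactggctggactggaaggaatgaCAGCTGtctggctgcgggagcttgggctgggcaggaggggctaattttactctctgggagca
Kcnj8, chr4:177246549-177246798, minus strand: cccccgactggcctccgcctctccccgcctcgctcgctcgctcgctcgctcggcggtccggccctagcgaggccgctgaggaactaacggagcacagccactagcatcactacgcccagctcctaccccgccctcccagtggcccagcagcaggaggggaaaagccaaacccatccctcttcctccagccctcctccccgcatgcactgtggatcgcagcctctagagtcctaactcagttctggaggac
The Cacna1s window holds CAGCTG at 2 places, beginning 197 and 62 bases before the start, and the Kcnj8 window has none. Scn7a and 1 of the 2 Kcns3 windows, both genes higher in EOM, hold CAGCTG, and the lower fibre genes Clcn1 and Kcnc4 have none. CAGCTG reads the same on both strands. It occurs in 12% of 33469 rat windows of that length and in 17.6% of the 74 channel windows, while CANNTG, of which it is 1 form, occurs in 65.5% and 59.5%. The MEF2 element, searched by its consensus on both strands, occurs in 0.523% and 2.7%. Clcn1, the fibre's chloride channel, has one, which is shown in capitals with the bases around it.
Clcn1, chr4:72139118-72139147, plus strand: ggagagacagCTATAAATAGctagaggtgg
It begins 50 bases before the start the table uses for Clcn1, which lies inside the gene's outer bounds. These letters are a description of the windows and not evidence of binding.

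Among calcium channels outside the triad, 6 further tested genes were not called in any comparison. Cacna1c, the pore of the cardiac and vascular channel, was higher in EOM but missed the threshold (log2 0.56, SE 0.23, adjusted p = 0.0578), and its dimmer probe set went the other way (log2 -0.38, adjusted p = 0.319). Its group means were 113.4 ± 38.1, 112.1 ± 63.7 and 110.3 ± 44.0 units in EDL at 6, 18 and 30 months and 151.2 ± 12.8, 171.8 ± 38.8 and 147.9 ± 72.8 in EOM (SD, n = 4 here and for every mean below). The presynaptic pores Cacna1a and Cacna1b had group means between 222.3 and 310.7 and between 123.5 and 167.6 units. Cacna1g, a T-type pore, lay between 232.7 and 282.4 units, Cacnb3 between 67.3 and 86.9, and Cacna1e between 30.7 and 70.9, above background in EDL at 6 months alone.

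Among the sodium channel genes, the pore of the fibre membrane was not called on its brightest probe set, and an atypical channel of nerve-associated cells was higher in EOM. Scn4a (Nav1.4; Entrez 25722, chromosome 10, 91745459 to 91796452) carries the action potential of the adult fibre. It read 2157.4, 1466.0, 579.7 and 736.9 units at 6 months, 1339.7, 910.0, 833.8 and 724.0 units at 18 months, and 1417.2, 994.5, 722.1 and 711.7 units at 30 months in EDL. EOM arrays read 1002.6, 624.0, 669.2 and 725.0 units at 6 months, 1328.8, 1066.6, 817.1 and 698.1 units at 18 months, and 1265.0, 1034.8, 933.8 and 536.7 units at 30 months. The muscles overlapped and the brightest probe set was not called (log2 -0.18, SE 0.20, adjusted p = 0.486). A second was not called either (log2 -0.24, adjusted p = 0.326), while the dimmest, designed on the same record as the second, was lower in EOM (log2 -0.57, SE 0.21, adjusted p = 0.0348). The 3 probe sets share a sign over the mean of ages but not a call, and the dimmest lay between 45.5 and 214.0 units, close to background.

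Scn7a (Nax; Entrez 64155, chromosome 3, 71743873 to 71846454), an atypical sodium channel that senses extracellular sodium and is known from Schwann cells and other glia, was the tested channel gene furthest above its EDL level. In EDL it read 133.4, 62.3, 260.7 and 206.0 units at 6 months, 165.0, 163.6, 239.4 and 324.6 units at 18 months, and 165.4, 168.1, 244.9 and 347.1 units at 30 months. In EOM it read 265.9, 698.9, 933.4 and 736.1 units at 6 months, 399.7, 356.7, 945.3 and 851.3 units at 18 months, and 472.3, 442.2, 657.1 and 686.9 units at 30 months. All but 1 of the 12 EOM arrays exceeded every EDL array, and the difference was 3.04-fold (log2 1.60, SE 0.25, adjusted p = 9.25e-06). A second Scn7a probe set had no overlap at all, 27.7 to 128.3 units in EDL and 186.7 to 604.5 in EOM, and differed 5.63-fold (log2 2.49, SE 0.22, adjusted p = 1.25e-09). Scn7a was called at each age, but at 6 months the brightest probe set lost its call without the 2 EDL arrays of high actin ratio (adjusted p = 0.0522).

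Of 10 measured marker genes of Schwann cells and nerve, 9 were tested and 7 were higher in EOM, with a median log2 difference of 1.93. Among them were Mbp (myelin, 2.71), S100b (Schwann cells, 3.07), Nefl (1.93) and Nefm (3.06), both axonal neurofilaments. None of these was above background in any EDL group. They entered the test through EOM alone, and their values, with the median that is the value of Nefl, are not exact folds. Pmp22 (2.14), Cnp (0.79) and Gap43 (0.69) were also higher in EOM and were above background in every group. Mag and Prph were not called, and Nefh was below background in both muscles. The summed level ran from 2017 to 2547, 1676 to 2286 and 1629 to 2684 units in EDL at 6, 18 and 30 months, and from 5786 to 7965, 6825 to 7578 and 5414 to 7612 in EOM. The part of these cells in the level of Scn7a, and of Kcna1 and Kcnk1 below, was not tested.

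Of the other sodium channel genes, 2 were lower in EOM and 1 was not called. Scn3a (Entrez 497770, chromosome 3, 70554496 to 70666198), a neuronal pore known from embryonic tissue, averaged 163.3 ± 50.2, 181.9 ± 49.1 and 177.4 ± 65.4 units in EDL at 6, 18 and 30 months and 105.6 ± 41.0, 125.3 ± 41.8 and 101.5 ± 49.3 in EOM (log2 -0.70, SE 0.23, adjusted p = 0.0171). Scnn1g (Entrez 24768, chromosome 1, 185736225 to 185770099), the gamma subunit of the epithelial sodium channel, averaged 137.3 ± 15, 142.2 ± 64.5 and 111.5 ± 55.8 units in EDL and 82.0 ± 15.3, 75.9 ± 23.1 and 97.7 ± 8.3 in EOM (log2 -0.53, SE 0.21, adjusted p = 0.0475). The alpha and beta subunits were below background, and the Scnn1g call was lost under 22 of 34 alternatives (adjusted p up to 0.0942). Among these was leaving out any 1 array other than EDL 18-month replicates 2 and 4, EDL 30-month replicate 1, EOM 6-month replicate 4 and EOM 18-month replicate 3. Of 7 gland and epithelium markers, 5 were higher in EOM, with summed levels of 3574 to 34408 units against 291.9 to 7295 in EDL. Of these 5, Spt1 and Krt19 were not above background in any EDL group and entered the test through EOM alone. Spt1 by itself ran from 160.1 to 31848.7 units over the EOM arrays. The part of gland and epithelium cells in the Scnn1g level was not tested. Scn8a, the pore of nodes of Ranvier, was above background in EOM at 6 months alone, with group means of 58.0 to 74.2 units, and was not called (adjusted p = 0.512).

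Clcn1 (ClC-1; Entrez 25688, chromosome 4, 72138739 to 72168113), which carries most of the resting chloride conductance of the fibre, was lower in EOM. It read 49.2, 146.8, 404.2 and 584.5 units at 6 months, 551.1, 424.3, 456.9 and 524.5 units at 18 months, and 405.1, 369.1, 559.6 and 277.8 units at 30 months in EDL. It read 165.2, 209.5, 277.5 and 50.2 units at 6 months, 161.9, 102.8, 176.2 and 307.4 units at 18 months, and 94.3, 206.2, 215.2 and 240.8 units at 30 months in EOM. At 18 and 30 months every EOM array was below every EDL array, and over all ages the difference was 2.04-fold (log2 -1.03, SE 0.33, adjusted p = 0.0137). At 6 months the muscles overlapped, and the EDL arrays of high actin ratio read 49.2 and 146.8 units where the other 2 read 404.2 and 584.5. At no single age was Clcn1 called (adjusted p = 0.665, 0.0595 and 0.179 at 6, 18 and 30 months), and the mean over ages kept its call under all 35 alternatives.

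The intracellular exchangers, which swap chloride for protons in endosomes, had 1 called gene of 2 tested. Clcn4 (Entrez 60586, chromosome X, 27290769 to 27356967) averaged 261.4 ± 120.7, 329.1 ± 67.2 and 258.8 ± 32.8 units in EDL at 6, 18 and 30 months and 170.2 ± 36.7, 202.0 ± 41.2 and 183.2 ± 35.2 in EOM (log2 -0.57, SE 0.17, adjusted p = 0.0103). Clcn3 had group means of 543.7 to 847.4 units and was not called (log2 -0.16, SE 0.19, adjusted p = 0.529). Clcn5 and Clcn7 were below background.

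Among the inward rectifiers of the fibre, Kcnj12 and Kcnj11 were lower in EOM, and Kcnj2 was below background and not tested. Kcnj12 (Kir2.2; Entrez 117052, chromosome 10, 46196110 to 46245008), a strong inward rectifier that stabilises the resting potential, read 351.6, 380.8, 302.6 and 328.5 units at 6 months, 467.2, 441.2, 520.7 and 350.2 units at 18 months, and 185.6, 288.4, 403.3 and 241.6 units at 30 months in EDL. It read 134.4, 165.3, 188.2 and 134.4 units at 6 months, 158.5, 144.4, 160.5 and 115.1 units at 18 months, and 143.7, 225.0, 216.5 and 125.0 units at 30 months in EOM. There was no overlap at 6 or 18 months, and 9 of the 12 EOM arrays lay below every EDL array. The difference was 2.20-fold over all ages (log2 -1.13, SE 0.14, adjusted p = 4.37e-07). It was log2 -1.62 at 18 months and -0.64 at 30 months, where it was not called (adjusted p = 0.0655). Between 18 and 30 months in EDL it differed by log2 -0.71 (adjusted p = 0.24), which did not pass.

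Kcnj11 (Kir6.2; Entrez 83535, chromosome 1, 105727473 to 105731167), the pore of the ATP-sensitive potassium channel that couples excitability to energy state, read 3683.0, 4517.5, 2018.5 and 3503.0 units at 6 months, 4265.9, 5154.0, 2810.7 and 3915.2 units at 18 months, and 2185.0, 3395.4, 2142.9 and 2757.6 units at 30 months in EDL. EOM gave 2636.7, 2775.5, 1952.1 and 2066.2 units at 6 months, 2520.7, 2755.2, 1883.8 and 2586.5 units at 18 months, and 2884.1, 2360.8, 2042.9 and 2597.7 units at 30 months. The ranges overlapped except at 18 months, and the difference was 1.34-fold (log2 -0.43, SE 0.13, adjusted p = 0.00966). A second probe set of the same record gave log2 -0.67 (adjusted p = 0.000126). Without the EDL arrays of high actin ratio the brightest probe set was not called (adjusted p = 0.0516).

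Kcnj8 (Kir6.1; Entrez 25472, chromosome 4, 177240692 to 177246548), the corresponding pore of vascular smooth muscle and pericytes, had the opposite direction. It read 173.3, 95.7, 143.2 and 152.8 units at 6 months, 117.8, 136.6, 168.2 and 118.6 units at 18 months, and 57.2, 169.0, 127.3 and 137.8 units at 30 months in EDL and 207.7, 286.4, 216.6 and 339.7 units at 6 months, 286.9, 282.1, 138.5 and 290.3 units at 18 months, and 238.9, 188.2, 174.9 and 315.0 units at 30 months in EOM. All but 1 EOM array exceeded every EDL array, a 1.87-fold difference (log2 0.90, SE 0.18, adjusted p = 0.000322). Of the regulatory subunits that pair with these pores, the sulfonylurea receptors Abcc8 and Abcc9, neither was called.

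Kcnk1 (TWIK-1; Entrez 59324, chromosome 19, 70856985 to 70895053), a leak channel of the K2P family, was higher in EOM. In EDL it read 56.6, 64.4, 127.8 and 100.9 units at 6 months, 76.2, 30.0, 88.8 and 124.6 units at 18 months, and 70.2, 33.6, 66.0 and 114.4 units at 30 months, around background. In EOM it read 124.2, 98.9, 195.8 and 184.0 units at 6 months, 94.3, 112.1, 178.9 and 140.6 units at 18 months, and 111.8, 141.7, 173.9 and 249.5 units at 30 months. The muscles overlapped, and the difference was 1.99-fold (log2 0.99, SE 0.24, adjusted p = 0.00176). The other tested rectifiers, Kcnj1, Kcnj10 and Kcnj15, the first of them best known from kidney, had group means of 161.9 to 238.4, 67.6 to 85.5 and 76.3 to 114.5 units and were not called.

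**Figure D3:**
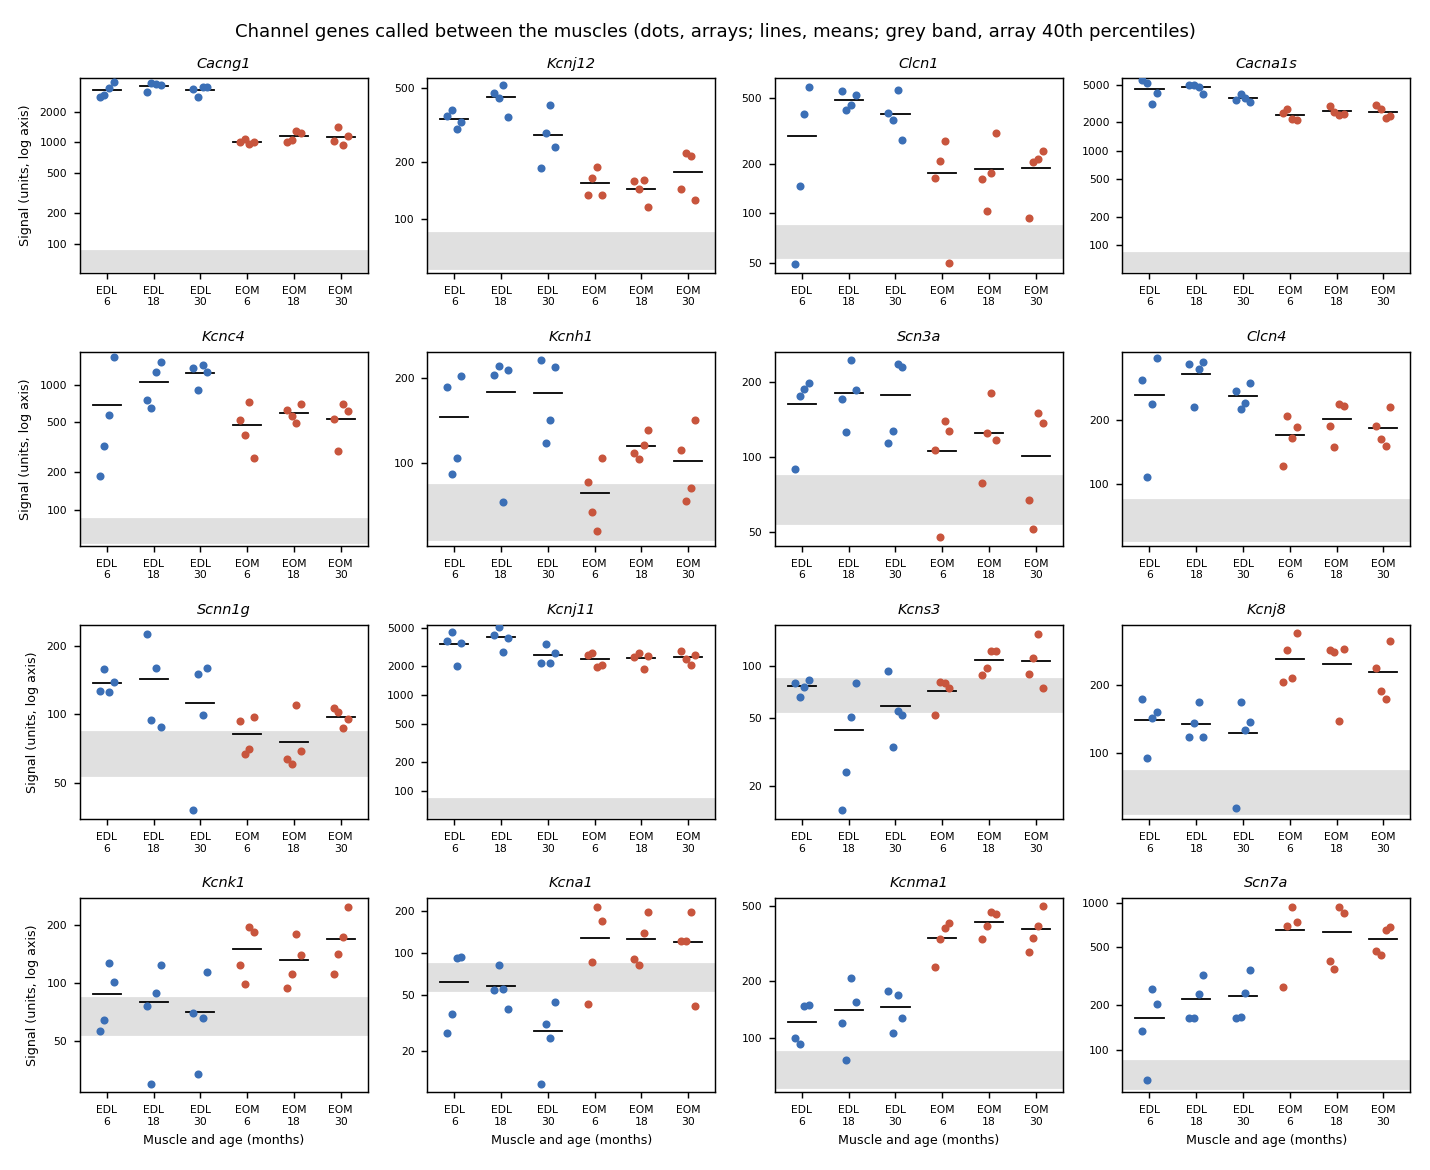
Signal in units (log axis) of the 16 channel genes called between EOM (red) and EDL (blue) over the mean of ages, by muscle and age in months; dots are arrays, lines are group means, and the grey band spans the arrays' 40th percentiles (53.8 to 83.8 units). Cacng1 and Cacna1s have no EOM array among the EDL values, and Scnn1g, Kcns3, Kcna1 and Kcnk1 lie partly within the band.

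Calcium-activated potassium channels showed both a large muscle difference and the single age call. Kcnma1 (BK; Entrez 83731, chromosome 15, 351065 to 1057117) opens on both depolarisation and calcium and is abundant in smooth muscle and neurons. In EDL its brightest probe set read 99.3, 92.0, 147.3 and 148.6 units at 6 months, 119.8, 75.7, 207.7 and 155.4 units at 18 months, and 178.2, 106.5, 169.8 and 126.7 units at 30 months. In EOM it read 237.0, 337.2, 381.5 and 406.6 units at 6 months, 335.5, 393.6, 465.9 and 453.2 units at 18 months, and 286.9, 338.2, 393.5 and 505.1 units at 30 months. No array of the muscles overlapped, and the difference was 2.84-fold (log2 1.51, SE 0.16, adjusted p = 6.25e-08), called at each age and under all 35 alternatives. A second Kcnma1 probe set was above background on 1, 0 and 0 EDL arrays at 6, 18 and 30 months and on every EOM array, so it entered the test through EOM alone and its p-value is not given as support. It read 22.1, 21.2, 110.8 and 25 units at 6 months, 26.1, 21.4, 42.5 and 31.3 units at 18 months, and 35.3, 25.3, 38.4 and 36.7 units at 30 months in EDL and 353.4, 367.1, 419.4 and 358.9 units at 6 months, 390.5, 291.7, 620.0 and 450.0 units at 18 months, and 316.6, 327.0, 356.4 and 471.8 units at 30 months in EOM. It was below background on every EDL array at 18 and 30 months, so the fold there is a lower bound, at least 6.13-fold and at least 4.97-fold, each array's 40th percentile standing in for the dim side. Both probe sets carry the suffix _s_at, which marks probes that can match more than 1 transcript.

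Kcnmb1, the beta subunit that accompanies BK in smooth muscle, averaged 200.5 ± 96.8, 197.0 ± 73.9 and 209.1 ± 71.5 units in EDL at 6, 18 and 30 months and 359.2 ± 149.1, 219.3 ± 134.7 and 279.6 ± 53.5 in EOM. It was not called (log2 0.50, SE 0.26, adjusted p = 0.139). Of 6 measured smooth muscle and pericyte genes, 5 were tested: Acta2, Cnn1, Myh11 and Tagln were higher in EOM (log2 0.97 to 1.68), Des, which skeletal fibres also make, was lower (-0.81), and Pdgfrb was below background. The summed level of all 6, most of it Des, was 17275 to 27134 units in EDL and 12937 to 20936 in EOM over the 3 ages. Without Des it was 1478 to 3470 units in EDL and 3488 to 9544 in EOM. Kcnn1, a small-conductance channel of neurons, had group means of 188.2 to 243.1 units and was not called (adjusted p = 0.567). Ace was the 1 of 4 endothelial genes that was higher. The part of vessel cells in the levels of Kcnma1 and Kcnj8 was not tested.

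**Figure D4:**
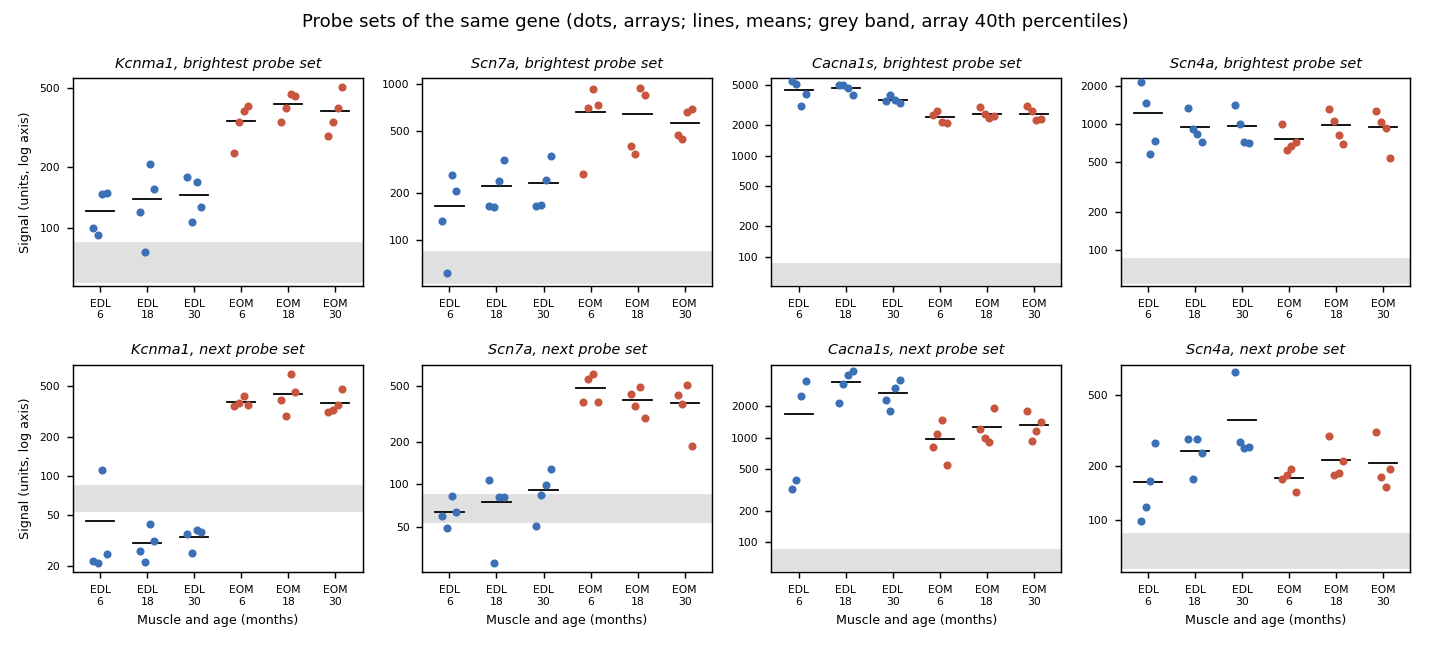
Signal in units (log axis) of the brightest (top) and next (bottom) probe set of Kcnma1, Scn7a, Cacna1s and Scn4a on every array, by muscle and age in months; dots are arrays, lines are means and the grey band spans the arrays' 40th percentiles. The next Kcnma1 probe set lies below 111 units in EDL and above 291 units in EOM, and the next Cacna1s probe set is low on 2 EDL arrays at 6 months (324.4 and 395.8 units).

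Voltage-gated potassium channels and their accessory subunits were represented by 31 genes, of which 14 were tested. Called were 4 of them, 2 in each direction. Kcnc4 (Kv3.4; Entrez 684516, chromosome 2, 197747095 to 197788467), a fast-inactivating channel of fast skeletal fibres, read 186.8, 324.6, 568.4 and 1648.8 units at 6 months, 755.2, 645.3, 1270.9 and 1515.5 units at 18 months, and 1371.2, 913.6, 1441.8 and 1264.0 units at 30 months in EDL. It read 520.1, 398.0, 728.3 and 260.9 units at 6 months, 628.9, 556.6, 491.8 and 705.5 units at 18 months, and 526.9, 297.1, 700.3 and 610.0 units at 30 months in EOM. At 30 months all EDL arrays were above all EOM arrays, and over all ages the difference was 1.64-fold (log2 -0.71, SE 0.26, adjusted p = 0.0285). The call was lost when EDL 18-month replicate 4, EOM 6-month replicate 4 or EOM 30-month replicate 2 was left out (adjusted p up to 0.0567). The EDL arrays of high actin ratio were the lowest of their group (186.8 and 324.6 units), and without both the call stayed.

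Kcna1 (Kv1.1; Entrez 24520, chromosome 4, 161150378 to 161160051), the channel beside the nodes of myelinated axons, read 26.9, 36.8, 91.6 and 93.7 units at 6 months, 54.4, 81.5, 55.3 and 40 units at 18 months, and 11.7, 30.9, 24.6 and 44.4 units at 30 months in EDL. It read 43.4, 85.4, 213.3 and 169.8 units at 6 months, 90.1, 81.4, 138.0 and 196.2 units at 18 months, and 121.4, 120.6, 196.7 and 41.8 units at 30 months in EOM, where 7 of 12 arrays were above every EDL array. It was above background on 2, 1 and 0 EDL arrays at 6, 18 and 30 months and on 3, 4 and 3 EOM arrays. It therefore entered the test through EOM alone. Its fitted difference over all ages (log2 1.24, SE 0.29) is not an exact fold, and its call is not given as support. At 30 months, with no EDL array above background, EOM was at least 1.43-fold higher. The probe set has the suffix _s_at. Its beta subunits Kcnab1 and Kcnab2 were not called.

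Kcns3 (Kv9.3; Entrez 83588, chromosome 6, 39527410 to 39584105), a silent subunit that modifies other Kv channels, averaged 75.9 ± 7.3, 42.1 ± 29.1 and 58.3 ± 25.1 units in EDL at 6, 18 and 30 months and 71.3 ± 13.1, 107.0 ± 17.4 and 106.7 ± 34.5 in EOM (log2 0.71, SE 0.20, adjusted p = 0.00633). It was called at 18 months alone, and its probe set has the suffix _s_at. Kcnh1 (EAG1; Entrez 65198, chromosome 13, 106253101 to 106555712), mainly a brain channel, averaged 146.0 ± 56.3, 177.6 ± 69.9 and 177.3 ± 55.7 units in EDL and 78.9 ± 20.6, 114.5 ± 11.9 and 102.2 ± 31.1 in EOM (log2 -0.71, SE 0.21, adjusted p = 0.00678). The tested genes not called were Kcnab1, Kcnab2, Kcnd2, Kcng1, Kcnh2, Kcnh3, Kcnh4, Kcnh7, Kcnh8 and Kcnq3. Of these Kcnd2 and Kcng1 came closest, with log2 -0.75 (adjusted p = 0.0796) and -0.53 (adjusted p = 0.0982). Kcnd2 was not above background in any EOM group and entered the test through EDL alone, so its value is not an exact fold. The means of Kcnh2, Kcnh3 and Kcnq3 lay between 363.9 and 453.6, 467.3 and 565.3, and 123.8 and 209.3 units. Kcnab1 and Kcnab2 lay between 78.6 and 145.8 and between 96.1 and 134.4, Kcnd2 between 29.1 and 92.4, Kcng1 between 54.3 and 110.6, Kcnh4 between 53.1 and 93.4, Kcnh7 between 91.9 and 129.4, and Kcnh8 between 77.1 and 110.6.

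By the cell or tissue in which a channel is best known, the nerve and glia list of 36 genes had 30 on the array and 14 tested, with 2 higher in EOM (Kcnk1, and Kcna1, tested through EOM alone), 2 lower (Kcnh1, Scn3a) and a median log2 of -0.07. Its called share of 28.6% of the tested genes was below the 42.3% of all tested probe sets. The smooth muscle and vessel list of 6 had 4 tested and 1 higher (Kcnj8), 25%, with a median of 0.53. Of 2 tested heart genes none was called (1 at an unadjusted p under 0.05, Kcnd2, tested through EDL alone). The epithelium list had 3 tested and 1 lower (Scnn1g), 33.3%, and the chloride and proton exchanger list 2 tested and 1 lower (Clcn4), 50%. With 2 to 4 genes tested in each, these shares are read as no result about the lists. Of the called genes, Scn7a and Kcns3 are in no list.

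Taken age by age, the muscle difference was called for fewer genes. At 6 months 5 of 43 were called, 11.6%, against 17.9% of all tested probe sets: Kcnma1 and Scn7a were higher in EOM and Cacna1s, Cacng1 and Kcnj12 lower. At 18 months 7 were called, 16.3% against 23.4%: Kcnma1, Kcns3 and Scn7a were higher and Cacna1s, Cacng1, Kcnj11 and Kcnj12 lower. At 30 months 9 were called, 20.9% against 19.2%: Kcna1, Kcnj8, Kcnk1, Kcnma1 and Scn7a were higher and Cacna1s, Cacng1, Kcnc4 and Kcnn3 lower. Of these Kcna1 entered the test through EOM alone. Kcnma1, Scn7a, Cacna1s and Cacng1 were called at each age. The count at 30 months depended on single arrays: it was 5 without EDL 30-month replicate 2, 5 without EOM 30-month replicate 3 and 3 without EOM 30-month replicate 4. At 18 months Scn7a lost its call without EOM 18-month replicate 3 or 4 (adjusted p up to 0.0615), and Kcnj11 without EDL 18-month replicate 1 or 2 or EOM 18-month replicate 3. At 30 months Scn7a lost it without EDL 30-month replicate 1 or 2 or EOM 30-month replicate 3 or 4, Kcna1 without EDL 30-month replicate 2 or 3 or EOM 30-month replicate 1, 2 or 3, and Kcnk1 without EDL 30-month replicate 2 or EOM 30-month replicate 3 or 4. Kcnj8 lost it without EDL 30-month replicate 1 or EOM 30-month replicate 1 or 4. Cacna1s and Kcnc4 at 30 months were each lost under 16 of 36 alternatives (adjusted p up to 0.27 and 0.163), Cacna1s without any 1 of the 4 EDL arrays of that age, EOM 30-month replicate 2, 3 or 4, EDL 18-month replicate 3, EOM 6-month replicate 1 or EOM 18-month replicate 2 or 4. Kcnc4 was lost without EDL 30-month replicate 1, 3 or 4, EOM 30-month replicate 1, 2 or 4, EDL 18-month replicate 1 or 3, EOM 6-month replicate 1 or 2, or any 1 EOM array at 18 months. That a gene was called at one age and not at another does not show that the ages differ, and none of the 43 had a called difference between the muscles' ageing responses (0 of 43 for 30 against 6 months, where 0.192% of all tested probe sets were called, and 0 of 43 for 18 against 6 months, where 0% were). In each, 1 gene had an unadjusted p under 0.05.

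With age, 1 channel gene changed. Kcnn3 (SK3; Entrez 54263, chromosome 2, 177227276 to 177378849) encodes a small-conductance calcium-activated potassium channel, insensitive to voltage, that is known for its appearance in denervated and immature skeletal muscle. In EDL it read 163.9, 41.2, 84.6 and 110.9 units at 6 months, 176.7, 217.9, 150.5 and 126.9 units at 18 months, and 471.1, 572.1, 288.1 and 265.3 units at 30 months. The 30-month arrays were all above the arrays of both younger ages, although those of 6 and 18 months overlapped. Group means were 100.2 ± 51.3, 168.0 ± 39.0 and 399.2 ± 147.6 units at 6, 18 and 30 months. Between 6 and 30 months Kcnn3 rose 4.25-fold (log2 2.09, SE 0.35, adjusted p = 0.000846). That is 1 of 43 tested channel genes, 2.33%, against 1.86% of all tested probe sets. The rise was called under 35 of 36 alternatives, and not when only the 2 groups compared were fitted (adjusted p = 0.081).

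From 18 to 30 months Kcnn3 was higher without passing (log2 1.20, SE 0.35, adjusted p = 0.109), and from 6 to 18 months by 0.88 (adjusted p = 0.478). In EOM it read 129.2, 196.4, 156.7 and 114.7 units at 6 months, 185.0, 184.2, 110.9 and 95.3 units at 18 months, and 184.1, 209.8, 148.2 and 142.8 units at 30 months, and the ages overlapped. The change from 6 to 30 months there was log2 0.21 (adjusted p = 1.00). The difference between the muscles' changes was -1.88 (SE 0.50), with an unadjusted p of 0.000947 and an adjusted p of 0.201, so it was not called. At 30 months all EOM arrays were below all EDL arrays (log2 -1.16, SE 0.35, adjusted p = 0.0209). That call was lost without EDL 30-month replicate 1 or 2, or EOM 30-month replicate 3 or 4 (adjusted p up to 0.0779).

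Genes that rise in muscle that has lost its nerve were also higher in EDL at 30 months, compared group by group. Of 7 such genes, 6 rose in EDL from 6 to 30 months, where 1.86% of all tested probe sets were called. The 6 were Chrna1 and Chrnd, acetylcholine receptor subunits (log2 3.15 and 2.20), Myog, a myogenic factor (3.21), Gadd45a (3.27), Ncam1 (2.98) and Runx1 (1.98). Chrng, the fetal receptor subunit, did not pass (0.79, adjusted p = 0.168). Their summed level was 1332 to 4858 units in EDL at 6 months, 1797 to 3362 at 18 and 9868 to 17304 at 30, and 4687 to 5714, 5475 to 5902 and 5721 to 6595 in EOM, where 0 of the 7 passed limma's test (0 at an unadjusted p under 0.05). The difference between the muscles' changes from 6 to 30 months was called for 2 of the 7, against 0.192% of all tested probe sets. Array by array the 7 genes did not all follow Kcnn3. In EDL at 6 months each of the 7 was highest on replicate 3, and Kcnn3 on replicate 1. At 30 months Chrnd and Myog were highest on replicate 2, as was Kcnn3, and the others were not. Of the gland and epithelium markers, 2 of 7 (Klk1 and Krt18) also rose in EDL at 30 months, their list's summed level reaching 2781 to 7295 units against 291.9 to 766.2 at 6 months. Krt18 was above background in EDL at 30 months alone. It entered the test through that group, so its call is not given as support. The part of either list in the rise of Kcnn3 was not tested.

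**Figure D5:**
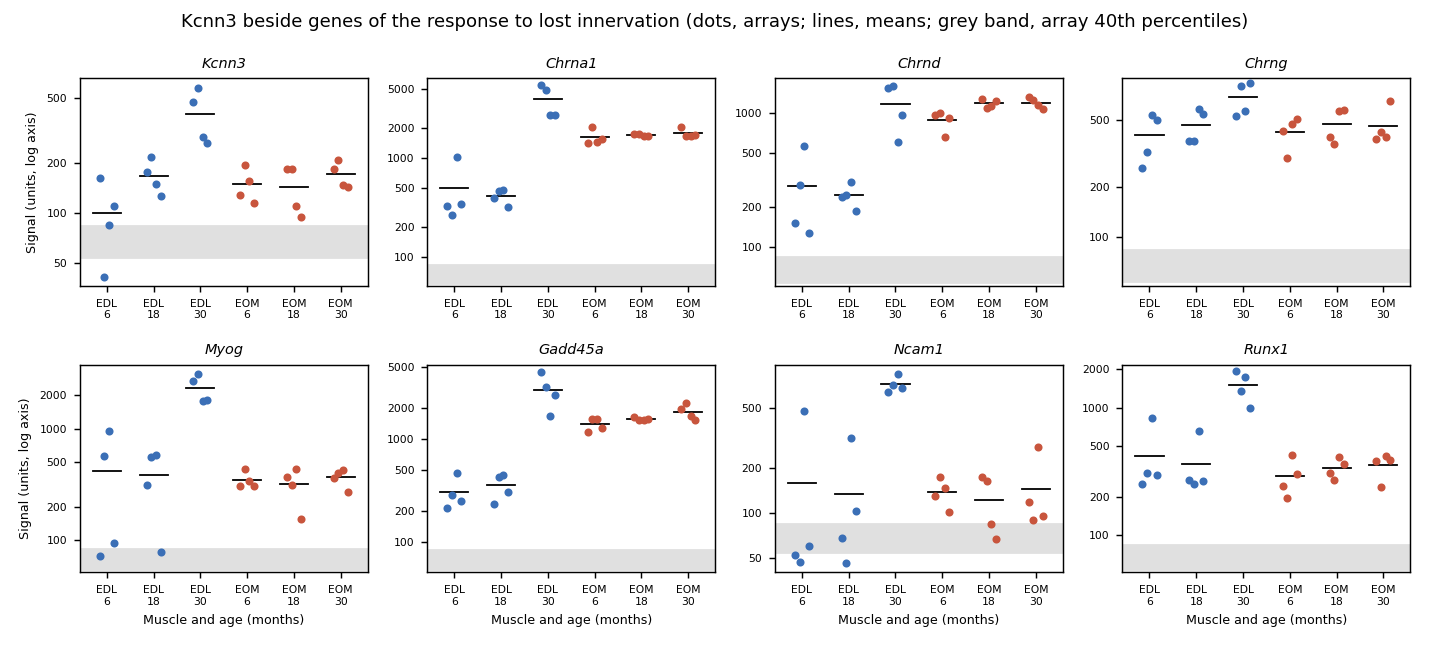
Signal in units (log axis) of Kcnn3 and of 7 genes that respond to lost innervation, by muscle (EDL blue, EOM red) and age in months; dots are arrays, lines are means and the grey band spans the arrays' 40th percentiles. In EDL the 30-month arrays of Kcnn3 (265.3 to 572.1 units) lie above those of 6 and 18 months, as do those of Chrna1, Chrnd, Myog, Gadd45a, Ncam1 and Runx1.

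No other channel gene was called with age. In EDL from 6 to 18 months 0 of 43 were called, against 0.279% of all tested probe sets, with 6 at an unadjusted p under 0.05, and from 18 to 30 months 0 of 43, against 1.55%, with 5. In EOM none was called from 6 to 30 months (0.0348% of all probe sets, 1 channel gene at an unadjusted p under 0.05), from 6 to 18 months (0.174%, 0) or from 18 to 30 months (0.0174%, 0). The comparisons within a muscle share groups. Kcnn3 and Kcnc4 were the only channel genes with an unadjusted p under 0.05 in EDL from 6 to 30 months. Kcnc4 was not called (log2 1.33, SE 0.45, adjusted p = 0.175), and its 6-month values included the 2 arrays of high actin ratio.

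Other genes of membrane excitability, which are no channels by the naming rule, were followed as a list of 53, of which 34 were on the array and 31 tested. Over the mean of ages 9 were higher in EOM and 8 lower, 54.8% of those tested against 42.3% of all probe sets, with a median log2 of 0.08. The sodium pump's beta subunits went opposite ways, Atp1b1 higher (log2 1.34, SE 0.12, adjusted p = 4.15e-09) and Atp1b2 lower (-1.92, SE 0.23, adjusted p = 2.55e-07). So did the calsequestrins, which hold calcium in the sarcoplasmic reticulum: Casq2, the cardiac and slow form, was higher (1.53) and Casq1, the fast form, lower (-0.50). Jph2, a junctophilin that ties the reticulum to the transverse tubule at which Cacna1s sits, was lower (-1.19, SE 0.16, adjusted p = 9.34e-07), as was the fast calcium pump Atp2a1 (-0.39). The acetylcholine receptor subunits Chrna1, Chrnb1, Chrnd and Chrne were higher over the mean of ages. At 30 months, of these only Chrne was called higher, and Chrna1 was called lower in EOM (mean 1771 units against 3932 in EDL). Chrna1, Chrnb1 and Chrnd were also the 3 of the 31 that rose in EDL from 6 to 30 months, 9.68% against 1.86% of all tested probe sets. The difference between the muscles' changes over those ages was called for Chrna1 and Chrnb1, 6.45% against 0.192%.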

How the data were processed

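Signals are MAS5 intensities that the authors deposited for 24 Rat Genome U34 arrays, per the labels. The labels name Cy3 and Cy5, but the design text describes biotin labelling, so arrays were read as 1-colour. Their means, without the top and bottom 2%, lay between 499.98 and 500.93 units. Detection calls were not used here.

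After removal of 59 control probe sets, 8740 remained. The platform table paired 7006 with a single gene symbol, 308 with more than 1 and 1426 with no symbol. All 86 channel genes matched a RefSeq entry by Entrez identifier. Values were raised to at least each array's 25th percentile (21.4 to 34.5 units) and log2-transformed. The 5741 probe sets above the array's 40th percentile on at least 3 of 4 arrays of a group were tested with limma 3.58.1 in R 4.3.3, in 1 fit of 6 group means with an intensity trend, and p-values were adjusted over all of them (Benjamini-Hochberg). The fit was tested on simulated data.

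The genes, lists and tests were chosen with earlier results of these data known. The naming rule gave every gene called in any of 12 comparisons with its groups, per-array values for up to 8 genes of the largest muscle difference, up to 6 per age comparison and the tested fibre membrane list, and ranges or counts for the rest. Alternatives covered normalisation, floor, filter, spread model, array weights, probe set, replicate block and each array left out. A further alternative, without both EDL arrays of high actin ratio, was chosen after seeing the data.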

Additional observations from a re-analysis of the deposited data

Results flagged for a closer look

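Among the channel genes and groups of 4 arrays examined, 102 in all, 2 had 1 array far from the other 3 by Dixon's test at its 95% critical value, which chance gives in about 1 of 20 groups. Kcnh1 in EDL at 18 months read 73.1 units in replicate 3, against 204.8, 212.6 and 219.8 in the others (gap over range 0.898). Kcnj8 in EOM at 18 months read 138.5 units in replicate 3, against 282.1, 286.9 and 290.3 (0.946). That array is the 1 EOM array of Kcnj8 that did not exceed every EDL array.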

How the results depend on the processing

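No call of a gene in a comparison changed direction under any alternative, and direction was not checked for genes not called. Of 1344 recomputed values of called genes, 1254 stayed past the threshold and 90 did not. Of 38 calls of a gene in a comparison, 23 held under every alternative run. Over the mean of ages, 13 of 16 calls did, the exceptions being Kcnc4, Kcnj11 and Scnn1g, and 14 to 17 genes were called with 1 array left out. Same-numbered arrays deviated together in 53 of 60 pairs at a correlation over 0.1 (median 0.28, lowest -0.0075), and 22 of 24 arrays correlated best with their own number, a hint from the data of something shared. The labels do not say what a number marks and not every pair reached that correlation, so the main values have no block. With the replicate block the calls over the mean of ages were 17 in place of 16 (Cacna2d1 added, adjusted p = 0.0116), at 6 months 9 in place of 5, at 18 months 11 in place of 7, at 30 months 13 in place of 9 (Kcnj12, Scn3a, Kcns3 and Kcnh1 added), and in EDL from 18 to 30 months 2 in place of 0 (Kcnn3 and Kcnj11). No call was lost with it. Array weights gave 11 at 18 months. Fitting only the groups compared gave 0 in EDL from 6 to 30 months, in place of 1. Without both EDL arrays of high actin ratio there was 1 in EDL from 18 to 30 months. With 1 array left out, calls ran from 5 to 6 at 6 months, 6 to 9 at 18 months, 3 to 9 at 30 months, 1 to 2 in EDL from 6 to 30 months, and 0 to 1 from 6 to 18 (1 without EDL 6-month replicate 4) and from 18 to 30 months (1 without EDL 6-month replicate 2). They stayed at 0 in the other age and interaction comparisons. The cause of these shifts was not tested. Signals near the 40th percentile limit the dimmer genes, whose folds the floor shortens.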

Other observations

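Several fibre channel genes had an unadjusted p under 0.05 between ages in EDL without passing the adjusted threshold of limma's test. From 6 to 18 months Clcn1, the chloride channel, and Kcnc4, the fast potassium channel, were higher by 1.26 and 1.01 on the log2 scale (SE 0.57 and 0.45, adjusted p = 0.594 and 0.572). That comparison includes the 6-month EDL arrays of high actin ratio, on which Clcn1 and Kcnc4 read lowest of their group. From 18 to 30 months Kcnj12, Kcnj11 and Cacna1s were lower, by log2 -0.71, -0.62 and -0.38 (SE 0.24, 0.22 and 0.16, adjusted p = 0.24, 0.28 and 0.432). Neither of these groups holds an array of high actin ratio. For Cacna1s all 4 EDL arrays at 18 months lay above all 4 at 30 months. In EOM the channel gene with the lowest unadjusted p from 6 to 30 months was Kcnh4 (log2 0.87, SE 0.41, adjusted p = 1.00).

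For the difference between the muscles' changes from 6 to 18 months, the silent subunit Kcns3 was the only channel gene with an unadjusted p under 0.05. Its EOM change minus its EDL change was log2 1.43 (SE 0.50, adjusted p = 0.789), and the difference was not called. Scn4a, whose brightest probe set had a log2 difference of -0.22 in EDL from 6 to 30 months, had a second probe set at 1.13 there (adjusted p = 0.0862), so these probe sets of the fibre's sodium channel gave opposite signs with age and neither passed. That comparison includes the 6-month EDL arrays of high actin ratio, which read highest of their group on the brightest probe set. The change without them is not given here.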
